A study of Gallus gallus with 2 samples.

Results

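Neural ectoderm-2 is 1 of 16 cell classes that the authors named in chicken embryos at HH5, a stage of gastrulation in the series of Hamburger and Hamilton. Its members are the 668 cells that carry this name in the authors' class column, out of 7750 cells in all, which is 8.62% of them (exact Clopper-Pearson 95% interval 8.0 to 9.27%, counting error only). The cells came from whole embryos of the chicken (Gallus gallus), dissected in Ringer's solution and dissociated with enzymes, with no treatment and no genotype given. They were profiled with the 10x Multiome assay, in which RNA and open chromatin (by ATAC) are both sequenced from each cell, in 1 preparation with an RNA library and an ATAC library. The antero-posterior axis is named in the labels for both, and the number of embryos that were pooled is not given there.

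Neural ectoderm is the part of the epiblast that forms the neural plate and later the brain and spinal cord. The transcription factors SOX2 and SOX3 are widely used to mark it. At gastrula stages the neural plate is patterned from head to tail while the primitive streak, a groove in the midline where epiblast cells move inside and become mesoderm or endoderm, lies behind it. Epiblast beside the streak contributes to the posterior neural tube, and WNT and FGF signals from the posterior are known to shift neural cells towards posterior identities. Opening and closing of regulatory DNA, which ATAC measures, is one of the layers in which such positional identity can be read.

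Each cell had a pair of coordinates, wnnUMAP_1 and wnnUMAP_2, of an embedding in which cells lie close together when their RNA and ATAC profiles are alike, and cells of 13 classes had an ATAC rank. Ranks ran from 1 to 6681 without repeats, and all 668 neural ectoderm-2 cells had one. The labels and file header do not say what was ranked or which end is anterior, so ranks are only called low or high. The sequencing depth behind each rank is unknown, and levels of SOX2 and SOX3 were not analysed here, so the class name could not be checked against its markers. Cells of 1 preparation are not replicates, so values below are descriptions over cells, and no difference was tested. The embedding rests in part on the ATAC profiles, as the rank does by its name, and the class column holds cluster names. Relations among the 3 are therefore not between independent measurements.

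Neural ectoderm-2 held an intermediate stretch of the rank. Its lowest rank was 184 and its highest was 5153. The central 90% of its cells lay between ranks 816.9 and 3366, with a median of 2075.5 and an SD of 821 over cells. Between the upper quartile of neural ectoderm-1 (1184.5) and the lower quartile of the primitive streak (3773.5) lay 558 of its cells, or 83.5%. At or below the former were 100 cells (14.97%), and at or above the latter were 10 cells (1.50%). In pairs of cells drawn from each class, the neural ectoderm-2 cell ranked above the neural ectoderm-1 cell in 88.5% and above the primitive streak cell in 1.79%. Against nonneural ectoderm-2 it ranked above in 50.2% of pairs, against nonneural ectoderm-1 in 45.2% and against the notochord in 44.7%, where 50% means no difference in level. On the rank alone, neural ectoderm-2 was thus set between its flanking classes but overlapped widely with nonneural ectoderm and notochord. It also overlapped with mesoderm-5 (quartiles 1887.75 and 3087.5), above which it ranked in 36.5% of pairs.

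When all ranked cells were divided into 10 bins of 668 or 669 cells, neural ectoderm-2 supplied a single broad peak. It supplied 3.59% of the cells in bin 1, the lowest ranks (95% interval 2.32 to 5.30%), 16.6% in bin 2 (interval 13.9 to 19.7%) and 26.2% in bin 3 (interval 22.9 to 29.7%). The highest share was in bin 4 (ranks 2005 to 2672), with 183 cells or 27.4% (24.0 to 30.9%), an interval that overlapped with that of bin 3. Bin 5 held 20.5% (interval 17.5 to 23.8%), and bin 6 held 4.49% (interval 3.05 to 6.35%). Bins 7 and 8 held 5 and 3 of its cells. Bins 9 and 10 held 0 of 668 cells. An approximate upper limit of 3 in 668 cells is 0.449% of the class. It covers counting error only and, unlike the intervals of the bins, is not exact. The middle rank of all ranked cells, 3341, had 630 neural ectoderm-2 cells below it, or 94.3%.

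**Figure D1:**
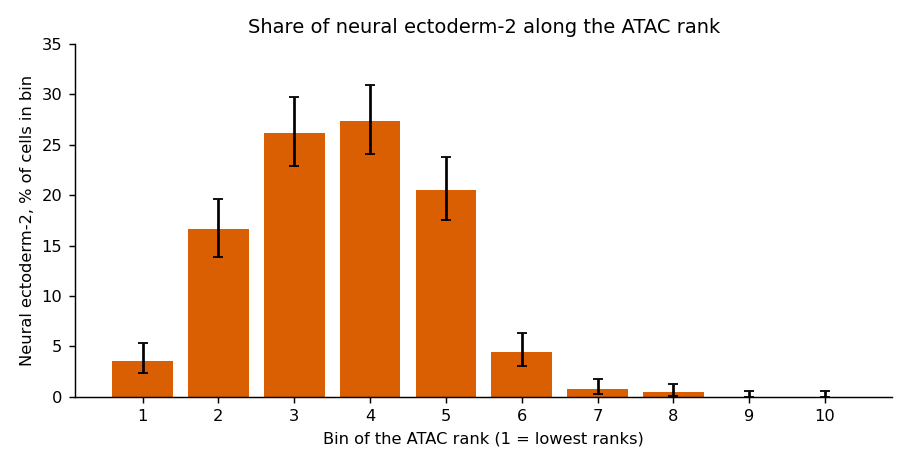
Percent of the cells in each of 10 bins of the ATAC rank (x axis, bin 1 has the lowest ranks) that were neural ectoderm-2 (y axis); error bars are exact 95% binomial intervals, which cover counting error only. The share peaks at 27.4% in bin 4 and no neural ectoderm-2 cell lies in bins 9 and 10.

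In the embedding, neural ectoderm-2 formed a patch with neural ectoderm-1 on the side of low wnnUMAP_2 and the primitive streak on the side of high wnnUMAP_2. Nonneural ectoderm lay along its upper and right edges. Of its cells, 374 (56.0%) had only neural ectoderm-2 among their 15 nearest cells. At least 1 nonneural ectoderm-1 cell was among the 15 nearest of 146 cells (21.9%), a neural ectoderm-1 cell of 72 (10.8%), a primitive streak cell of 41 (6.14%) and a nonneural ectoderm-2 cell of 36 (5.39%). A mesoderm-3 cell was among the 15 nearest of 54 cells (8.08%) and a notochord cell of 37 (5.54%), although these classes supplied only 0.539% and 0.769% of all nearest cells. From the other side, only 7 mesoderm-3 and 8 notochord cells had a neural ectoderm-2 cell among their 15 nearest, against 32 primitive streak and 31 mesoderm-4 cells. The 54 cells beside mesoderm-3 had a median rank of 1558.5 and the 37 beside the notochord a median of 2045. Mesoderm-4, extraembryonic endoderm, mesoderm-2 and mesoderm-5 were beside 14, 13, 2 and 1 of the cells. No neural ectoderm-2 cell lay beside both neural ectoderm-1 and the streak at this definition of a border. Since these classes adjoin opposite sides of the patch, that count was largely fixed by its height. Contacts between neural ectoderm-1 and streak cells themselves were not counted. Of the 41 cells beside the streak, 37 also lay beside nonneural ectoderm-1. The upper edge was thus shared between the streak and a nonneural class.

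A main body of 659 cells held all but 9 members of the class. The 9 others had fewer than 3 neural ectoderm-2 cells among their 50 nearest cells, a division made after the embedding had been seen. The main body spanned wnnUMAP_1 from -4.14 to -0.27 and wnnUMAP_2 from -5.77 to -2.51. The ranks of these 9 cells ran from 331 to 4888 and differed with the place of the cell. The 3 at the tip of the notochord had ranks of 331, 621 and 1052, where the 13 notochord cells around them had a median of 589 (range 96 to 1105). The 4 among mesoderm-2 and mesoderm-4 had ranks of 3764, 4554, 4727 and 4888, each above the upper quartile of neural ectoderm-2 (2688.5). Of these 4 ranks, 3764 was below the lowest of its 15 nearest cells (3832), and the others lay within the range around them. The 4 ranks differed from the median rank around each cell by -1207, -1044, -560 and 617, in the order given. The last 2 lay beside neural ectoderm-1 (rank 2261) and nonneural ectoderm-1 (rank 3143). The cells of other classes around them had medians of 1274 and 3022, so these ranks were 987 and 121 higher. Whether these 9 cells are misassigned, doublets or of another origin was not tested.

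**Figure D2:**
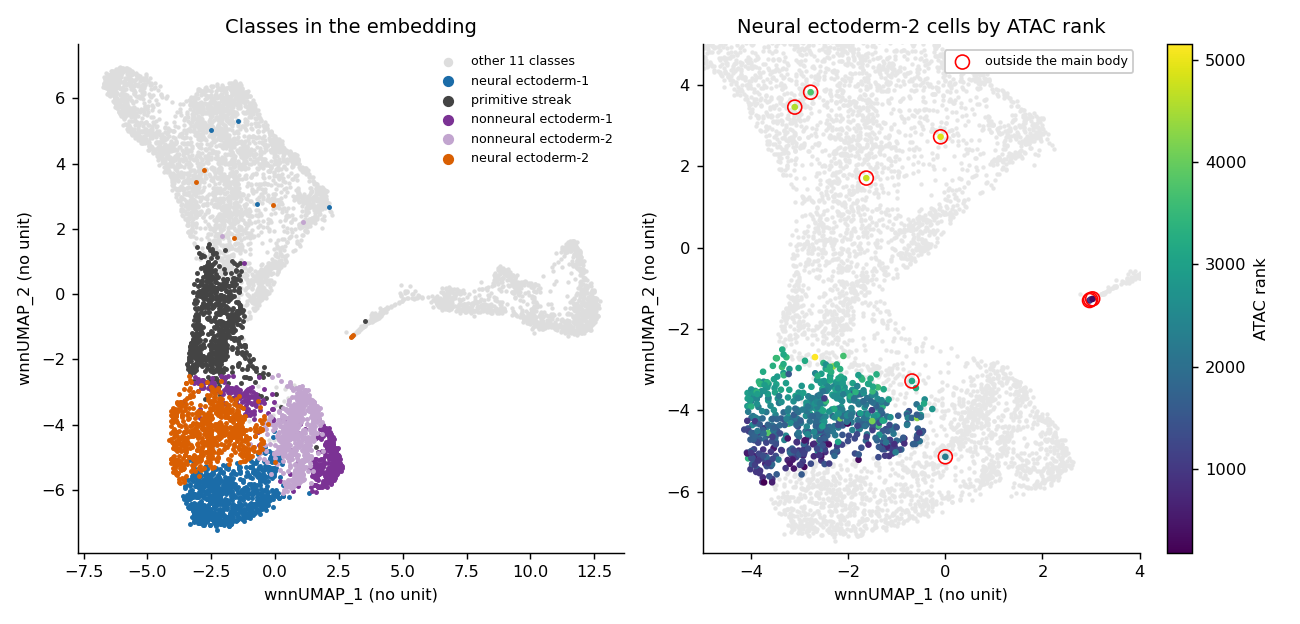
Embedding of all cells by wnnUMAP_1 (x axis) and wnnUMAP_2 (y axis), both without a unit; the left panel colours neural ectoderm-2 and 4 adjoining classes, and the right panel colours the neural ectoderm-2 cells by ATAC rank over all other cells in grey. Ranks rise from the edge beside neural ectoderm-1 to the edge beside the primitive streak, and red circles mark the 9 cells outside the main body.

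The rank rose across the class from the neural ectoderm-1 side to the streak side. To place cells without using their ranks, each was projected on the straight line from the centre of neural ectoderm-1 (position 0) to the centre of the primitive streak (position 1). Neural ectoderm-2 cells had a median position of 0.364, with quartiles of 0.276 and 0.479, and the main body reached from 0.0954 to 0.723. The Spearman correlation between position and rank was 0.77 across the 668 cells and 0.79 in the main body. The class was ordered by position and divided into 10 groups of 66 or 67 cells, which had median ranks of 1094, 1260, 1520, 1759, 1859, 2121, 2351, 2584, 2834 and 3190.5. All 9 steps between adjacent groups were upward and measured between 100 and 356.5 ranks. No step made up most of the total rise of 2096.5, so the medians climbed in small steps and not in 1 jump. The quartile range of the first group (915.5 to 1437.5) was disjoint from that of the last (2898.75 to 3379.75). The quartile ranges of adjacent groups overlapped in every case, and cells of 1 group differed widely. In group 5, for example, ranks ran from 229 to 4291. The last group held 7 of the 9 cells outside the main body.

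**Figure D3:**
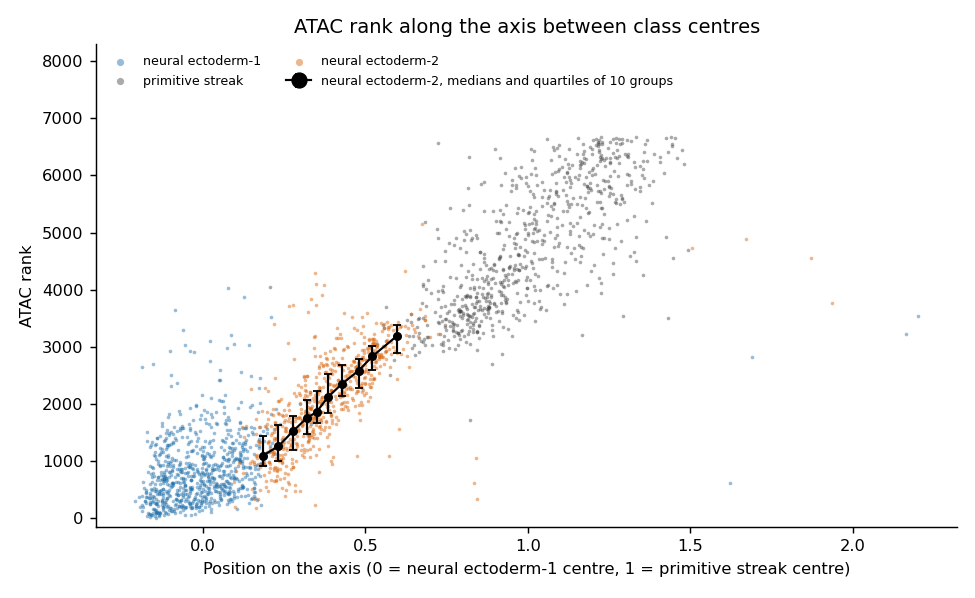
ATAC rank (y axis) against position on the line between the class centres (x axis, 0 at neural ectoderm-1 and 1 at the primitive streak), with 1 point per cell of neural ectoderm-1, neural ectoderm-2 and the primitive streak; black points and bars are medians and quartiles of 10 groups of neural ectoderm-2 cells. The medians climb from 1094 to 3190.5, and neural ectoderm-2 cells beyond a position of 0.723 are outside the main body.

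The gradient ran along wnnUMAP_2 and hardly along wnnUMAP_1. In the main body, the rank had a Spearman correlation of 0.80 with wnnUMAP_2 and of 0.08 with wnnUMAP_1, and the coordinates themselves had a correlation of 0.11 with each other. A plane fitted to the ranks rose by 951 ranks per unit of wnnUMAP_2 and changed by -0.78 ranks per unit of wnnUMAP_1. The direction of its steepest rise was 5.57 degrees away from the line between the class centres. The plane captured 60.1% of the variance of main-body ranks, and a surface with squared and cross terms for 60.2%. A curved surface therefore described the main body hardly better than a flat one. The SD of the ranks was 797 before and 505 after removal of the plane. With all 668 cells the plane captured 45.2%, and the only difference between the fits was the 9 cells outside the main body, 7 of which lie among notochord or mesoderm.

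The rise along wnnUMAP_2 was present across the whole width of the class. The main body was divided into 4 strips of 164 or 165 cells by wnnUMAP_1. The Spearman correlation between rank and wnnUMAP_2 was 0.82, 0.80, 0.79 and 0.71 from the lowest to the highest wnnUMAP_1. The slopes were 928, 952, 931 and 1035 ranks per unit. The strip of highest wnnUMAP_1 thus had the steepest slope and the lowest correlation. The median ranks of the strips were 1816, 2106, 2341 and 2023, and their quartile ranges all overlapped. The strip with the highest median also had the highest median wnnUMAP_2 (-4.08), and the strip with the lowest median the lowest (-4.48). Within strips, the Spearman correlation between rank and wnnUMAP_1 lay between -0.21 and 0.18. From the lowest to the highest wnnUMAP_1, the strips held 14, 38, 22 and 71 of the cells beside nonneural ectoderm-1.

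**Figure D4:**
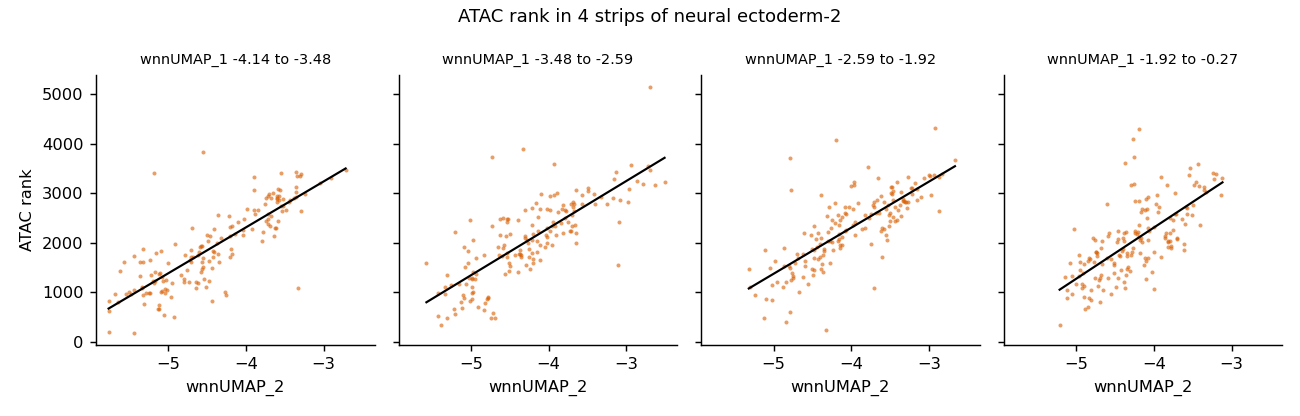
ATAC rank (y axis) against wnnUMAP_2 (x axis) for the main-body cells of neural ectoderm-2 in 4 strips of wnnUMAP_1 given above each panel, with 1 point per cell and a least-squares line. The lines rise in all 4 panels, by 928 to 1035 ranks per unit of wnnUMAP_2.

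At the same height in the embedding, neural ectoderm-2 cells and cells of adjoining classes had similar ranks. Cells within the width of the main body were divided into bands of 0.5 units of wnnUMAP_2, and classes with at least 10 cells in a band were compared. In the band from -5.5 to -5.0, the median rank was 1103 in 79 neural ectoderm-2 cells, with quartiles of 915.5 and 1396.5. It was 998.5 in 64 neural ectoderm-1 cells, with quartiles of 591.75 and 1357.25. In the band from -3.0 to -2.5, the median was 3345 in 21 neural ectoderm-2 cells, with quartiles of 3182 and 3473. In that band, 27 primitive streak cells had a median of 3195 and 61 nonneural ectoderm-1 cells a median of 3214. Over the 6 such comparisons with another class, the medians differed by 52.5 to 150.0 ranks, with neural ectoderm-2 higher each time, and all quartile ranges overlapped. The median of neural ectoderm-2 moved by 137 to 538 ranks from 1 band to the next, a range that overlaps with these differences. The step of 137 was between the lowest pair of bands. There the neural ectoderm-1 medians differed from those of neural ectoderm-2 by -110.5 and -104.5 ranks. The steps above were larger than any difference between classes, at 357 to 538 ranks.

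The rise was uneven along wnnUMAP_2. In neural ectoderm-1, medians rose from 618.5 to 998.5 over 4 bands. In neural ectoderm-2, they went from 966 to 1103 over the lowest pair of bands, then to 1520, 2044, 2582, 2988 and 3345. In the primitive streak they continued from 3195 to 5612 over 6 bands. Per band of wnnUMAP_2, neural ectoderm-2 thus covered the stretch in which the shallow rise of neural ectoderm-1 gave way to steeper steps. Whether equal distances in the embedding stand for equal differences between profiles was not tested. The lowest of these bands held 10 neural ectoderm-2 cells, so its median is the least precise.

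**Figure D5:**
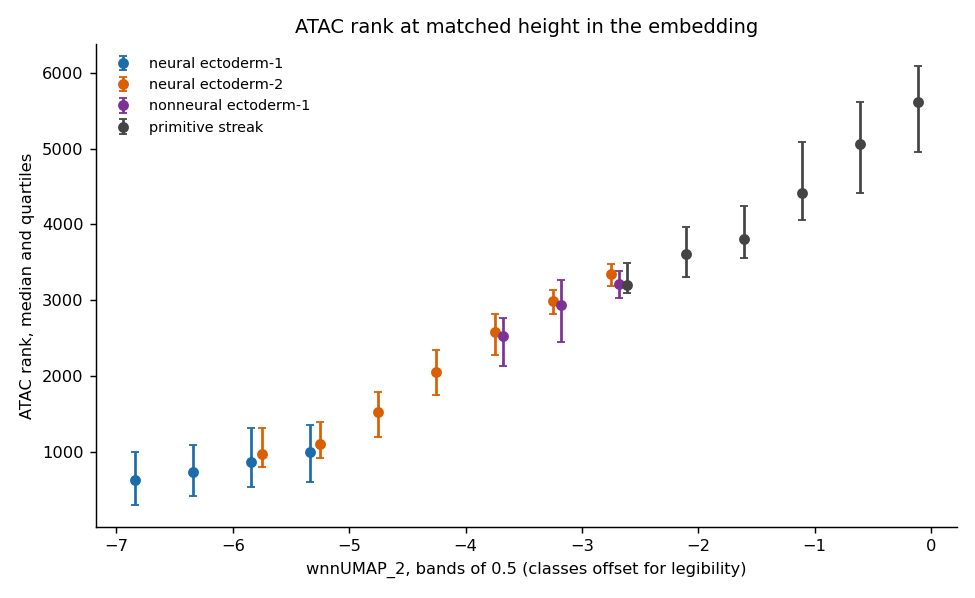
Median ATAC rank with quartiles (y axis) in bands of 0.5 units of wnnUMAP_2 (x axis) for neural ectoderm-1, neural ectoderm-2, nonneural ectoderm-1 and the primitive streak, using cells within the width of the neural ectoderm-2 main body. Where classes share a band, their medians differ by at most 150.0 ranks, while the medians climb from 618.5 to 5612 over the plotted range.

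Place in the embedding and class name were also compared by the share of rank variance that each captured. In the area of the embedding spanned by the main body, 659 neural ectoderm-2 cells and 335 cells of neural ectoderm-1, both nonneural classes and the primitive streak were present. A straight line in wnnUMAP_2 captured 68.1% of the rank variance of these 994 cells, and the class names alone for 37.5%. Adding the class names to wnnUMAP_2 raised the share by 0.415 percentage points, whereas adding wnnUMAP_2 to the class names raised it by 30.9. This contrast depends on the choice of area and coordinate. Of the 994 cells, 659 were neural ectoderm-2, and other classes entered only where they fell within its span. That limits what class names can capture, while wnnUMAP_2 had already been seen to carry the gradient. The shares therefore cannot decide whether place or class name describes the rank better. These shares describe cells that share a preparation and an embedding and carry no test.

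Cells on both sides of the borders with neural ectoderm-1 and with the primitive streak had overlapping ranks. Beside neural ectoderm-1, the 72 neural ectoderm-2 cells had a median of 1161.5 (range 191 to 2273). The 81 neural ectoderm-1 cells on the other side had a median of 1000 (quartiles 687 and 1448), against 712.5 for the rest of neural ectoderm-1. Across this border the neural ectoderm-2 cell ranked higher in 58.5% of pairs. Beside the primitive streak, the 41 neural ectoderm-2 cells had a median of 3182 (range 2429 to 5153). The 32 streak cells on the other side had a median of 3219 (quartiles 3047.5 and 3479.25), against 4748.5 for the rest of the streak. Across this border the neural ectoderm-2 cell ranked higher in 41.0% of pairs. With borders set by 15 nearest cells, the ends of the class itself did not overlap, since every cell beside the streak ranked above every cell beside neural ectoderm-1. With 50 nearest cells these groups did overlap. Cells beside neural ectoderm-1 then reached a rank of 4291, and cells beside the streak went down to 331. The cell of rank 331 is outside the main body, at the tip of the notochord. Such groups are picked at opposite ends of the gradient and are given as a description.

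The border with nonneural ectoderm-1 lay largely toward the high end of the gradient, and that with nonneural ectoderm-2 lower. The 146 neural ectoderm-2 cells beside nonneural ectoderm-1 had a median rank of 2802.5 and a range from 798 to 5153. The 91 nonneural ectoderm-1 cells facing them had a median of 2963 (quartiles 2537 and 3283), against 1978.5 for the rest of that class. Beside nonneural ectoderm-2 the median was 1766 over 36 neural ectoderm-2 cells, with quartiles of 1497 and 2127.75. The 22 nonneural ectoderm-2 cells facing them had a median of 2143, and their quartile range began at 1830.75. The 374 cells with no other class beside them had a median of 2051.5 (quartiles 1582.75 and 2573.75).

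Cells in the lowest bin and cells above the middle rank lay mostly, but not only, toward the ends of the patch. Of the 24 cells in the lowest bin, 22 were in the main body, with a median wnnUMAP_2 of -5.12, and 10 of these lay beside neural ectoderm-1. Of the 38 cells above the middle rank, 34 were in the main body, with a median wnnUMAP_2 of -3.35. Of these, 13 lay beside the streak, most of them also among the 20 beside nonneural ectoderm-1, and 13 had no other class beside them. Of the 10 cells at or above the lower quartile of the streak, 7 were in the main body. All 7 ranked more than 1000 above the median of their 15 nearest neural ectoderm-2 cells. Their median wnnUMAP_2 was -4.20, between the medians of the lowest bin and of the cells above the middle rank. Of these 7, 2 lay beside the streak and 4 had no other class beside them. Since these cells were picked for a rank above the median of every band of the class, standing above their surroundings was largely fixed by the choice. The other 3 of the 10 were among the cells outside the main body in mesoderm.

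Around the gradient, most cells ranked close to their surroundings. In the main body, 501 cells (76.0%) lay within 500 ranks of the median of their 15 nearest neural ectoderm-2 cells. More than 1000 ranks away were 32 cells, or 4.86%, of which 22 lay above and 10 below. The cell farthest above had a rank of 4291 among cells with a median of 1783, and the one farthest below had a rank of 1085 among cells with a median of 2929. Over the whole class, the quartile range of the difference from the nearest cells was 548 ranks, against 1206 for the ranks themselves. It was 510.0 in nonneural ectoderm-2, 535 in nonneural ectoderm-1, 650 in neural ectoderm-1 and 804 in the primitive streak. The ranks themselves had quartile ranges of 1032, 1615, 760.0 and 1975 in these classes, in the order given. The larger value in the streak thus went with a wider spread of its ranks. The share of cells more than 1000 ranks away was 5.69% over the whole class. In the same order of the other classes it was 5.42%, 6.54%, 7.08% and 13.5%. Whether the cells far from their surroundings differ in depth or are doublets was not tested.

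The gradient was not shown to be particular to neural ectoderm-2. Over all cells of a class, the Spearman correlation between rank and wnnUMAP_2 was 0.78 in neural ectoderm-2, 0.78 in nonneural ectoderm-1, 0.75 in nonneural ectoderm-2 and 0.76 in the primitive streak. The slopes were 626, 637, 622 and 781 ranks per unit, respectively. All cells of each class entered these slopes, which used wnnUMAP_2 alone. In neural ectoderm-2, the plane rose by 639 ranks per unit of wnnUMAP_2 over all 668 cells. It rose by 951 without the 9 cells outside the main body. No such cells were left out of the other classes. Neural ectoderm-1, the other neural class, had a correlation of 0.33 and a slope of 230 ranks per unit. Its ranks also spread less, with a quartile range of 760.0 against 1206 in neural ectoderm-2. Whether that spread bears on its correlation was not tested. These classes were compared as single sets of cells from 1 preparation, so the differences carry no test.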

How the data were processed

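One table was used, with a row per cell barcode of 1 HH5 preparation. No barcode occurred more than once. Both embedding coordinates and the ATAC rank are scores without a unit, deposited by the authors, and the class names are the authors' own, per the file headers. Per the submitters' processing notes, the build was galGal6, and the tools were Signac 1.8.0, Seurat 4.3.0 and Cell Ranger ARC 2.0.0. Not given in the sources used here are the settings, cell filters, doublet removal and what was ranked. No doublet caller was run. Gene and fragment counts were not analysed here, so no gene is reported and depth per cell is unknown.

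Ranks were summarised by medians and quartiles over cells. Nearest cells were found by Euclidean distance in the embedding (15 unless stated), and a cell lay beside a class when 1 or more of the 15 belonged to it. Planes were fitted by least squares. With 1 library of each kind there was no test. Functions were tested on simulated data. Classes, measures and divisions were chosen with earlier results of these data known. The rule on naming covered every class bordering neural ectoderm-2, and ranks on both sides of a border are given for those of both ectoderm types and the streak. Alternatives covered means, Pearson correlations, other axis ends, numbers of nearest cells and subsets of cells. Python 3.11.15, pandas 2.3.3, NumPy 2.4.6, SciPy 1.17.1 and matplotlib 3.10.9 were used.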

Additional observations from a re-analysis of the deposited data

How the results depend on the processing

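Of 25 alternative values for 7 results, 19 stayed within a set limit. The limit was the 95% binomial interval of a median, or the extreme differences that the intervals of 2 medians allow. For a correlation it was 0.1, and for a share of variance 10 percentage points. Of the 25 values, 0 changed sign, but only correlations and differences could do so, since ranks and shares are never negative. The limit for differences is wide. It applies to the median beside the streak minus that beside neural ectoderm-1, which was 2020.5, and 1742 with 50 nearest cells. Ranked among ectoderm and primitive streak cells only, the median of neural ectoderm-2 stood at 49.3% of the ranks, against 31.1% among all ranked cells. That set leaves out the mesoderm classes, which mostly ranked higher, and the notochord. It also leaves out endoderm, above which neural ectoderm-2 ranked in 78.8% of pairs. The part of each in the change was not tested. The correlation between rank and position was 0.77 by Spearman and 0.67 by Pearson. Without cells that border another class it was 0.72 over 374 cells. The plane accounted for 45.2% of the variance over all cells. The share was 60.6% with a quadratic surface, 56.0% over the 620 cells with at least 8 of 15 nearest cells in the class, and 60.1% in the main body, an alternative chosen after seeing the data. The median beside the streak was 3182, and 3025 with 50 nearest cells, a definition that takes in 80 cells. No paired analysis was possible because the series has a single preparation, whose RNA and ATAC come from shared cells. With 1 preparation, variation between embryos was not measured, and the depth behind each rank is unknown.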

Other observations

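A few cells of other classes lay inside neural ectoderm-2, with at least 8 of their 15 nearest cells in it. They were 15 nonneural ectoderm-1 cells, 9 neural ectoderm-1 cells, 3 each of notochord and nonneural ectoderm-2, 2 each of mesoderm-3 and the primitive streak, and 1 each of mesoderm-4 and extraembryonic endoderm. The 15 nonneural ectoderm-1 cells had a median rank of 2894, where the neural ectoderm-2 cells around them had a median of 2669. Taken cell by cell, their median difference from those around them was -48 ranks. The 9 neural ectoderm-1 cells had a median rank of 1261, where those around them had a median of 946, and a median difference of 12 ranks. The median difference was 272 ranks for the notochord cells and 167 for nonneural ectoderm-2. It was 191.5 for mesoderm-3 and -348.5 for the primitive streak. The 3 notochord cells had ranks from 1865 to 2733, where the neural ectoderm-2 cells around them had a median of 2045. The single mesoderm-4 cell had a rank of 4246 among neural ectoderm-2 cells with a median of 1765, a difference of 2481 ranks. The extraembryonic endoderm cell has no rank, as in the rest of its class.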
